A study of Mus musculus with 96 samples.

Results

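The cytosolic ribosomal protein genes encode the proteins of the ribosome that translates messenger RNA in the cytoplasm. Members were taken by name: symbols that start with Rpl or Rps and a digit, together with Rplp0, Rplp1, Rplp2, Rpsa and Fau, without pseudogenes named with -ps and without the Rps6k kinases. Of 89 genes with such a name, 85 had a mean level of at least 1 RPKM (reads scaled for transcript length and for library size) over 96 libraries, out of 22384 genes in the tables and 12144 at or above that level. The members closest to the limit were Rpl39 inside it, at 10.8 RPKM, and Rpl32l outside it, at 0.446 RPKM. The name rule covers 46 standard genes of the large subunit, 32 of the small subunit, 5 paralogs or retrogenes (Rpl22l1, Rpl36al, Rpl37rt, Rps27l and Rps4l) and 2 genes whose products are not counted among ribosomal subunits (Rpl7l1 and Rps19bp1).

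The animals were C57BL/6 males, 8 weeks old, fed freely under alternating 12 h light and 12 h dark periods. Back-skin epidermis was peeled off with dispase from 4 mice of each genotype every 4 h from ZT0 (lights on) to ZT20. All mice carried at least 1 Cre transgene, controls included. WT mice had Arntl wt/wt with K14Cre wt/tg and Syt10-Cre tg/wt. The other 3 genotypes were Arntl stopFL/stopFL, in which a stop cassette silences Arntl, the gene of the clock activator BMAL1, until Cre removes it: RERE carried K14Cre tg/wt and Syt10-Cre tg/wt (clock in brain and epidermis), EpiRE carried K14Cre tg/wt with Syt10-Cre wt/wt (epidermis alone) and BRE carried K14Cre wt/wt with Syt10-Cre tg/wt (brain alone). K14Cre acts in keratinocytes, so other epidermal cells of the stopFL genotypes are not its target.

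Ribosomal protein genes are transcribed at high rates in growing cells, and their products are made in step so that each subunit receives 1 copy of nearly every protein. Their messengers, like those of several elongation factors, begin with a stretch of C and T letters, the terminal oligopyrimidine (TOP) tract, through which mTORC1 signalling and the binding protein LARP1 control translation. Regulation through the tract acts on translation and may leave messenger levels unchanged, and messenger levels are what was measured here. Ribosome biogenesis factors, which process ribosomal RNA and assemble subunits in the nucleolus, form a separate group of genes.

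Annotated starts are shown for some of the genes described later, among the 64 of 85 for which RefSeq gave one. Each line runs 5′ to 3′ from 15 bases before to 15 bases after the start in GRCm38.p6, and capitals mark a run of at least 5 C or T letters that touches the 5 bases on either side of the start.
Fau (chr19:6057932-6057961, + strand): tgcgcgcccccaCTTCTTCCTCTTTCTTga
Rpl28 (chr7:4792950-4792979, + strand): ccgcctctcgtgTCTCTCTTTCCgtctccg
Rps9 (chr7:3704026-3704055, + strand): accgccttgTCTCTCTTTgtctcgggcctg
Rpl18 (chr7:45718056-45718085, + strand): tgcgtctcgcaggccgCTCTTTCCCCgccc
Rplp2 (chr7:141447636-141447665, + strand): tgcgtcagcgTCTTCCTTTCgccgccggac
Rps6 (chr4:86857353-86857382, - strand): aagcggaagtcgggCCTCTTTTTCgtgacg
Rps2 (chr17:24720048-24720077, + strand): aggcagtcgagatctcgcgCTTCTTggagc
Rps27 (chr3:90213634-90213663, - strand): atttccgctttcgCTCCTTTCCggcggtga
Rps27l (chr9:66946071-66946100, + strand): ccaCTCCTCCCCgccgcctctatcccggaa
Rpl22l1 (chr3:28805493-28805522, + strand): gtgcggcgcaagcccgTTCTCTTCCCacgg
Rpl36al (chr12:69184053-69184082, - strand): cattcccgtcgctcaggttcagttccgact

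Fau, Rpl28, Rps9 and Rpl18 were called rhythmic in WT (below), and Rps2, Rps27l and Rpl22l1 in BRE. Rplp2 and Rps6, not called in any genotype, are shown for their roles, and Rps27 as the standard gene paired with Rps27l. Another Rps27l entry (chr9:66946398-66946427) held no such run and is not shown. Of the 9 called WT genes with an entry, 5 had such a run (those 4 and Rpl10a) and 4 had none (Rpl11, Rpl13, Rpl7l1 and Rpl36al, of which the last is shown). On the strand that reads like the messenger, a run of at least 5 C or T letters was found at 35 of the 64 genes (54.7%). The share was 35.8% of 9293 tested genes with a start entry. A gene with several entries counted where any of them held a run. By entry the share was 49.3% for the members and 31.1% for the tested genes. A run of at least 8 was found at 25 of the 64 (39.1%), against 12.0%. Of 13 genes in a list of other TOP mRNAs, 7 held a run of at least 5, and 12 of 28 ribosome biogenesis genes did. A match describes letters near an annotated start, which can lie some bases from the start used in epidermis.

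Ribosomal protein messengers were among the most abundant in epidermis. The median over the 85 genes was 714 RPKM, against 9.28 over the tested genes, and 55 of the 85 were among the 100 highest of all genes. Together they held 16.3% to 21.6% of the summed RPKM of a WT library, and 15.9% to 20.9% in RERE, 16.1% to 20.2% in EpiRE and 16.1% to 19.7% in BRE. These ranges overlapped.

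**Figure D1:**
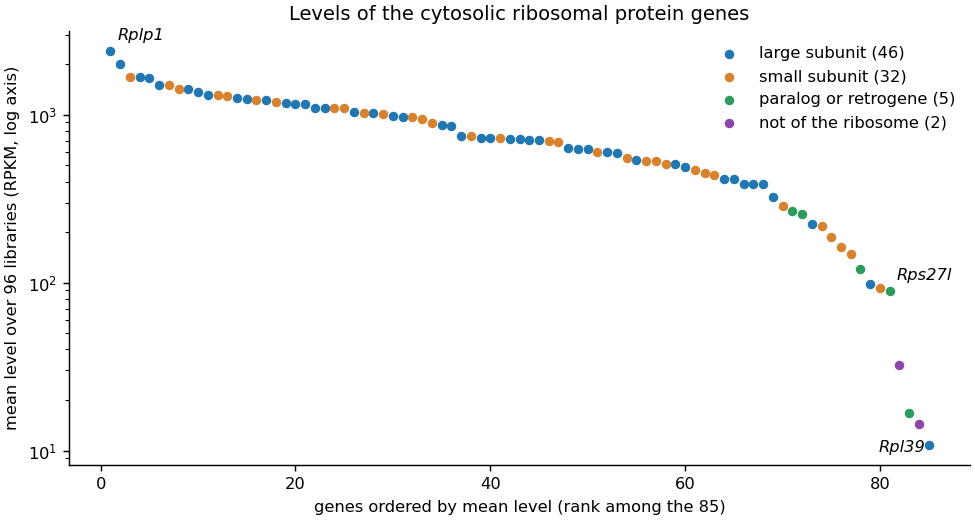
Mean level over 96 libraries (RPKM, log axis) of the 85 genes in order of level, coloured by kind. Most standard subunit genes lie between 500 and 2398 RPKM, and the lowest is Rpl39 at 10.8 RPKM.

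Levels per length differed little between subunits. The 46 large-subunit genes had a median of 740 RPKM and the 32 small-subunit genes one of 714 RPKM, and 59 of these 78 were at 500 RPKM or more. The highest were Rplp1 (2398 RPKM) and Rplp0 (2000 RPKM), which with Rplp2 (1417 RPKM) form the stalk that recruits elongation factors, then Rps26 (1688 RPKM), Rpl23a (1685 RPKM) and Rpl28 (1647 RPKM). The lowest of the 85 were Rpl39, Rps19bp1 (14.3 RPKM), Rps4l (16.6 RPKM), Rpl7l1 (32.2 RPKM) and Rps27l (88.9 RPKM). Rpl39 lines the exit tunnel of the large subunit, Rps19bp1 binds the Rps19 protein, and RefSeq lists Rps4l as a transcribed pseudogene. Levels of single genes are uncertain because reads shared with copies can be lost or moved: GENCODE M21 lists 301 pseudogenes named after 62 of the 85 genes, 24 of them after Rpl31 and 24 after Rps12. How the authors counted such reads is not given in the sources used here. The genes lie on 20 chromosomes, 14 of them on chromosome 7.

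Estimated depth was 11.6 to 33.3 megareads per library, the highest being a RERE library (ZT4 replicate 1) that stood apart. The median standard error of a member's size was 0.07 log2 in WT and EpiRE, 0.06 in BRE and 0.08 in RERE. Keratinocyte identity was clear: 7 basal markers summed to 11364 to 18889 RPKM in WT and 6 differentiated markers to 5907 to 15126, while 6 T cell markers summed to 33.9 to 90.5, 7 Langerhans cell markers to 82.7 to 149 and 4 endothelial markers to at most 0.399 RPKM. In WT, 5 melanocyte markers summed to at most 29.0, 5 fibroblast markers to 20.7, 4 muscle markers to 48.4 and 2 blood markers to 190 RPKM.

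The 4 tables were normalized apart, so levels between genotypes are set side by side without a test. The median over the 85 genes of a library was 9.49 ± 0.11 (log2 RPKM, SD, n = 24) for WT, 9.46 ± 0.13 for RERE, 9.47 ± 0.11 for EpiRE, and 9.46 ± 0.10 for BRE. The means of the genotypes were closer together than the libraries of any 1 of them.

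The genes moved together from library to library. For each library, the deviation of every gene from its mean in that genotype was averaged over the 85. This mean deviation ran from -0.17 to 0.32 log2 for WT, from -0.20 to 0.31 for RERE, from -0.18 to 0.27 in EpiRE and from -0.16 to 0.22 in BRE. At least 80% of the genes lay on the same side of their own mean in 20 of 24 WT libraries. The same held for 16 RERE, 14 EpiRE and 17 BRE libraries. Taking this shared movement (the mean over the other members) away lowered the median SD of a gene between libraries from 0.13 to 0.05 log2 in WT, and from 0.14 to 0.05 in RERE. The SD became smaller for 83 of 85 WT genes, and for 81 (RERE), 82 (EpiRE) and 83 (BRE) in the rest. Rpl7l1 was more variable without the shared movement in each genotype, with an SD of 0.11 before and 0.16 after in WT, and Rps4l was so in 3 of the 4.

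**Figure D2:**
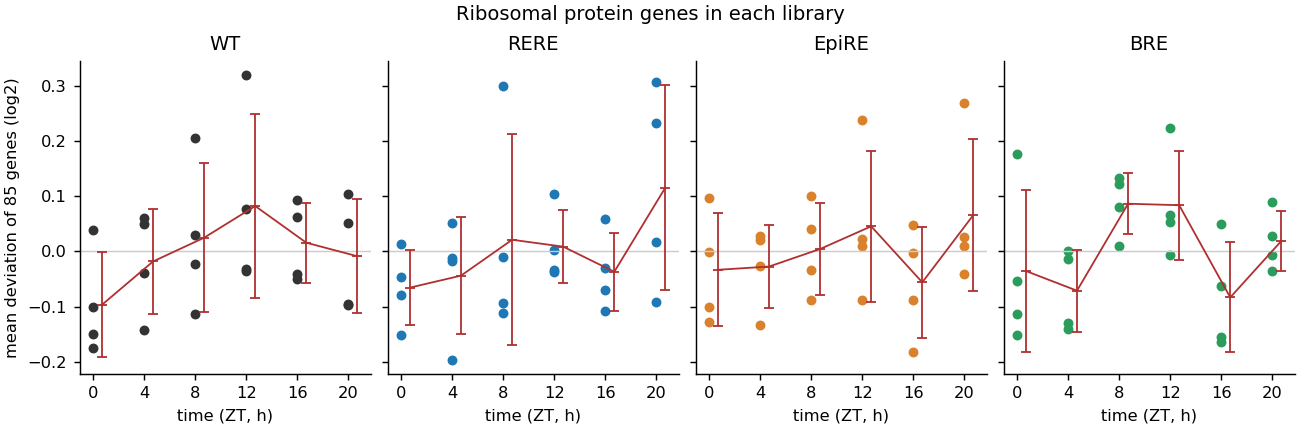
Mean deviation of the 85 genes (log2) from their genotype means against time of day, 1 point per library, with the mean ± SD of 4 mice in red. The WT mean rises from -0.10 at ZT0 to 0.08 at ZT12, while mice at the same time often differ by more than that.

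Several properties of a library moved with the mean deviation. In 8 libraries it was 0.2 or more: replicate 3 at ZT12 and replicate 1 at ZT8 in WT, replicate 2 at ZT8 and replicates 1 and 3 at ZT20 in RERE, replicate 3 at ZT12 and replicate 2 at ZT20 in EpiRE, and replicate 4 at ZT12 in BRE. In all 8, shorter transcripts tended to be higher, with slopes of the deviation of tested genes on log2 transcript length of -0.014 to -0.049. Over the 96 libraries the slope was negative in 13 of 14 with a mean deviation of at least 0.1 and in 1 of 18 with one of -0.1 or less. Ribosomal protein transcripts are short, with a median of 834 bases (84 genes with a length) against 2856 over the tested genes. In the same 8 libraries other TOP mRNAs averaged 0.10 to 0.23 log2 above their genotype means. Nuclear-encoded oxidative phosphorylation genes averaged 0.02 to 0.27 log2 above theirs, and ribosome biogenesis genes ran from -0.07 to 0.25. The rise in these libraries was thus not particular to the ribosomal protein genes. Markers of differentiated keratinocytes averaged 0.67 log2 below their WT mean in replicate 3 at ZT12 and 0.80 log2 below it in replicate 1 at ZT8, but 0.24 log2 above their mean in the BRE library. Estimated depth of these libraries was 17.91 (ZT12) and 12.97 (ZT8) megareads in WT, against a WT median of 18.34. In RERE it was 12.35 (ZT8), 11.58 and 13.56 (ZT20), against a median of 17.02. In EpiRE it was 12.33 (ZT12) and 13.28 (ZT20), against 15.13, and in BRE 18.65, against 16.42. The part of transcript length, of read depth, of the mix of keratinocyte stages and of other library properties in the results below was not tested. In bulk epidermis, fewer cells of a type and less RNA per cell cannot be told apart.

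In WT epidermis, 11 of the 85 genes had a daily rhythm (limma, adjusted p below 0.05 over all tested genes), which is 12.9% of them against 34.4% of all tested genes. How this share stands to the background depended on the scaling of the libraries: with median-of-ratios scaling 42.4% of the members were called against 31.8% of all tested genes, and with the length trend of each library removed 51.8% against 31.9%. The rhythms were shallow. The median size, the fitted peak-to-trough difference, was 0.16 log2 over the 85 genes and 0.23 log2 over all tested genes in the deposited values, and 0.22 log2 for both with median-of-ratios scaling. A fitted size cannot be below 0 and grows with noise. The median standard error in WT was 0.068 log2 for the members and 0.091 for all tested genes, so the medians do not have equal precision. The largest member size in the deposited values was 0.28. Without adjustment, 28 of the 85 had p below 0.05, a threshold that at least 34.4% of all tested genes passed. Fitted peaks of 78 of the 85 genes fell between ZT9 and ZT15, called or not. The called ones had a median of ZT11.8, around lights off. Because the genes moved together from library to library, these peaks are not separate observations. The share of all tested genes with a peak in that window was not counted. The mean deviation of the 85 genes was -0.10 ± 0.10 log2 at ZT0 and 0.08 ± 0.17 at ZT12 (SD, n = 4). Over the same hours the mean deviation of the 6 differentiated keratinocyte markers was 0.49 ± 0.43 log2 at ZT0 (from -0.09 to 0.85) and -0.51 ± 0.32 at ZT12 (from -0.82 to -0.08), and that of the 7 basal markers was -0.13 ± 0.21 and 0.13 ± 0.04. The differentiated markers thus stood higher at ZT0, and the members and basal markers at ZT12, and of these markers limma called Ivl and Col17a1 in WT. Their part in the result was not tested.

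Rpl36al, a paralog of Rpl36a on chromosome 12 (69182734 to 69184067), had the smallest adjusted p in WT. Its level was 251, 223, 220 and 253 RPKM in the 4 mice at ZT4 and 293, 258, 278 and 288 RPKM at ZT16. The 4 mice at ZT16 were all above the 4 at ZT4. Here and below, the times shown differ between genes and come from the same values as the call. Their separation is description and adds no support to it. The fitted size was 0.25 ± 0.06 log2 (SE), with a peak at ZT15.9 (adjusted p = 0.00734).

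Rpl3, which lies at the peptidyl transferase centre of the large subunit (chromosome 15, 80077781 to 80083406), was at 525, 579, 522 and 525 RPKM at ZT0. At ZT12 the 4 mice had 607, 632, 714 and 598 RPKM. The groups did not overlap, and the mouse at 579 RPKM stood apart from the other 3 at ZT0. The size was 0.20 ± 0.06 log2 with a peak at ZT11.3 (adjusted p = 0.0270).

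Fau encodes ribosomal protein eS30 fused to a ubiquitin-like protein. It stood at 401, 442, 381 and 382 RPKM at ZT0 and at 441, 494, 621 and 448 RPKM at ZT12. One ZT12 mouse lay just below the highest at ZT0, and the spread at ZT12 was wide. The size was 0.27 ± 0.08 log2 (adjusted p = 0.0346), and the fitted maximum lay at ZT11.8.

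Rpl11, which with Rpl5 and 5S ribosomal RNA forms a particle that can bind Mdm2, was at 1064, 1207, 1070 and 1077 RPKM at ZT0. At ZT12 it was at 1185, 1313, 1526 and 1197 RPKM. A single mouse at ZT0 reached into the range of ZT12. Its size was 0.21 ± 0.06 log2 (peak ZT11.3, adjusted p = 0.0373), and its partner Rpl5 had a size of 0.10 ± 0.06 (adjusted p = 0.377).

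The other called genes in WT were Rpl18 (0.24 ± 0.07 log2, ZT13.4), Rps9 (0.18 ± 0.06, ZT11.2), Rpl28 (0.22 ± 0.07, ZT12.6), Rpl10a, Rpl36, Rpl13 and Rpl7l1. Rpl7l1, a nucleolar relative of Rpl7, had a peak at ZT19.3, more than 6 h from the median of the called genes, and a size of 0.18 ± 0.05. By kind, 7 of 46 large-subunit and 2 of 32 small-subunit genes were called in WT. Among genes named for their roles, adjusted p was 0.174 for Rps6, the substrate of S6 kinase, 0.252 for the ubiquitin fusion Rps27a, 0.195 for Rpsa (also known as a laminin receptor) and 0.106 for Rplp0. Rps19 and Rps14, mutated or deleted in human ribosomopathies, had sizes of 0.18 ± 0.07 and 0.17 ± 0.08 log2 with adjusted p of 0.132 and 0.217.

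The WT count depended on the scaling and on single libraries. With median-of-ratios scaling it was 36 (10 of the 11 among them, with peaks of the 36 from ZT9.57 to ZT14.8), and with the length trend removed it was 44. With time as a factor of 6 levels it was 1, Rpl36al (1.18%, against 35.1% of all tested genes). Leaving out a single library gave 1 (ZT0 replicate 1), 2 (ZT0 replicates 3 and 4, ZT12 replicate 3), 3 (ZT12 replicate 2, ZT20 replicate 2), 5 (ZT4 replicate 2, ZT16 replicate 1), 7 (ZT4 replicate 3, ZT8 replicate 1) or 17 (ZT8 replicate 2, ZT20 replicate 1). In the authors' deposited table no member had a q value below 0.05 in any genotype by JTK_CYCLE or BIOCYCLE, and the smallest was 0.0601, for Rpl36al in WT by JTK_CYCLE.

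**Figure D3:**
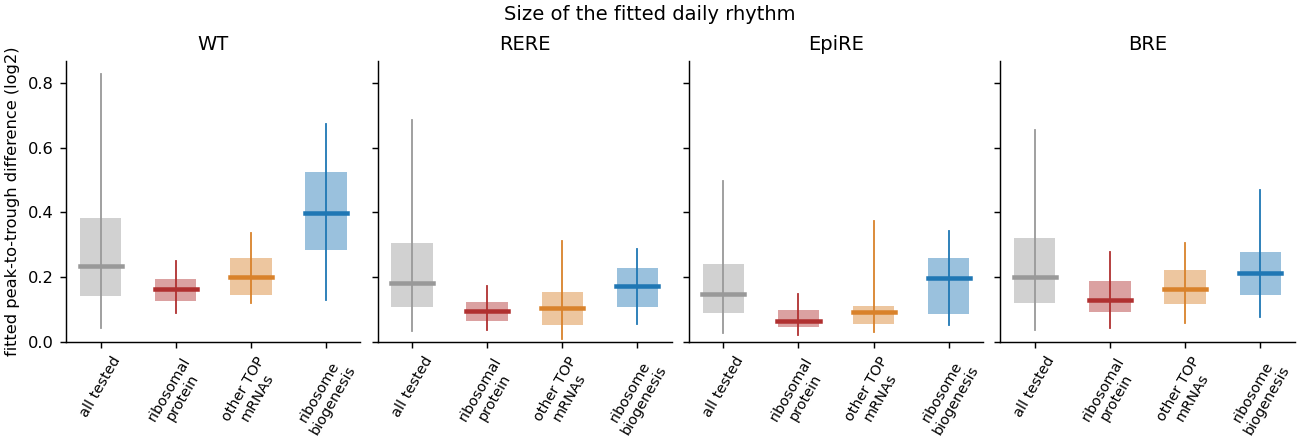
Fitted peak-to-trough difference (log2) in each genotype for all tested genes, the 85 ribosomal protein genes, 19 other TOP mRNAs and 35 ribosome biogenesis genes. Lines mark medians, boxes quartiles and whiskers the range from the lowest to the highest 5%, and in these deposited values the ribosomal protein median lies below that of all tested genes in each panel.

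In BRE, where the stop cassette stays in epidermal Arntl, 4 of the 85 genes were called (4.71%, against 17.1% of all tested genes). An unadjusted p below 0.05 was found for 15, a threshold that at least 17.1% of all tested genes passed. The core clock list had 2 of 18 genes called in BRE and 16 of 18 in WT. The 4 called genes were Rps27l, Rps2, Rplp1 and Rpl22l1, with peaks between ZT4.73 and ZT8.69. The median size over the 85 was 0.13 log2, against 0.20 over all tested genes.

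Rps27l, a paralog of Rps27 known as a target of p53 (chromosome 9, 66944624 to 66949522), had the smallest adjusted p in BRE. It was at 88.7, 89.3, 95.9 and 102 RPKM at ZT8 and at 72.4, 63.0, 61.9 and 73.7 RPKM at ZT16. The groups did not overlap, and the ZT16 mice were also below the 4 mice at ZT0 (105, 87.2, 87.6 and 77.7 RPKM) and ZT4. The size was 0.38 ± 0.09 log2 with a peak at ZT5.11 (adjusted p = 0.0171). In WT the 4 mice at ZT16 had 103, 83.7, 87.3 and 98.2 RPKM and the size was 0.05 ± 0.07 (adjusted p = 0.882).

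Rpl22l1, a paralog of the RNA-binding protein Rpl22 (chromosome 3, 28805508 to 28807424), was at 156, 138, 142 and 130 RPKM at ZT0 in BRE. At ZT16 it was at 112, 92.5, 93.5 and 114 RPKM, below each ZT0 mouse. The size was 0.34 ± 0.09 log2 with a peak at ZT4.73 (adjusted p = 0.0357). In WT it was 114 ± 7.4 RPKM at ZT16 and 125 ± 16 RPKM at ZT0 (SD, n = 4).

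Rplp1, of the stalk (chromosome 9, 61913283 to 61914510), was at 2934, 2749, 2723 and 2869 RPKM at ZT8 in BRE and at 2019, 1981, 1935 and 2238 RPKM at ZT16. These groups did not overlap. The size was 0.34 ± 0.09 log2 (peak ZT8.48, adjusted p = 0.0322), and Rplp0 and Rplp2 had sizes of 0.18 ± 0.06 and 0.20 ± 0.08 with adjusted p of 0.0958 and 0.166.

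Rps2, near the mRNA entry channel of the small subunit (chromosome 17, 24718121 to 24721927), was at 1007, 998, 1048 and 1058 RPKM at ZT8 in BRE. It was at 868, 880, 863 and 977 RPKM at ZT16, and 1 of those mice stood apart from the other 3. The size was 0.19 ± 0.05 log2 (peak ZT8.69, adjusted p = 0.0321).

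In BRE, 3 of 6 markers of differentiated keratinocytes (Ivl, Sbsn and Krt10) and 2 of 7 basal markers (Itga6 and Col17a1) were called as well, with peaks of the 3 between ZT10.6 and ZT14.1 and of the 2 at ZT19.7 and ZT21.0. At ZT8 and ZT12 in BRE the members were at 0.086 ± 0.055 and 0.084 ± 0.099 log2 (SD, n = 4). The differentiated markers were at 0.205 ± 0.195 and 0.205 ± 0.146, and the basal markers at -0.156 ± 0.158 and -0.096 ± 0.136. Their part in the result was not tested. The count of 4 became 16 with median-of-ratios scaling (18.8% of the members, against 12.7% of all tested genes) and also with time as a factor (18.8% against 13.4%), so that the share passed the background. It became 34 with the length trend removed (40.0% against 13.2%), with the 4 among them each time and median peaks near ZT12 to ZT13 (12.2, 12.0 and 13.1). Leaving out ZT0 replicate 1 gave 18, and leaving out ZT8 replicate 1 or 4 gave 2.

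In RERE, 1 of the 85 genes was called (1.18%, against 16.4% of all tested genes). This was Rpl39, on the X chromosome (37082518 to 37085222). It was at 15.04, 11.3, 10.9 and 10.4 RPKM at ZT8 and at 6.15, 7.68, 9.11 and 8.59 RPKM at ZT16. The groups did not overlap. The size was 0.45 ± 0.13 log2 (peak ZT5.65, adjusted p = 0.0479). The call was lost without any single one of 18 of the 24 RERE libraries, among them ZT4 replicate 1, the deepest library, and was kept without ZT4 replicate 3, ZT8 replicate 2, ZT12 replicate 3 or ZT20 replicate 1, 2 or 3. In WT the size of Rpl39 was 0.26 ± 0.13 (adjusted p = 0.289), and in BRE it was 0.31 ± 0.12 (adjusted p = 0.168).

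In EpiRE none of the 85 genes was called by limma, against 2.87% of all tested genes, and 0 had an unadjusted p below 0.05. No other setting of the limma test called any. The 3 smallest p-values belonged to Rpl21 (0.15 ± 0.06 log2, adjusted p = 0.304), Rps27l (0.17 ± 0.07, peak ZT5.64, adjusted p = 0.323) and Rpl35 (0.14 ± 0.07, adjusted p = 0.358). The largest member size in EpiRE was 0.18 log2, that of Rplp1. The core clock list had 7 of 18 genes called in EpiRE.

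No ribosomal protein gene was called different in its rhythm between any 2 genotypes by limma. The share of all tested genes called was 20.2% for BRE against WT, 8.51% for EpiRE against WT, 0.453% for RERE against WT, 4.79% for BRE against RERE, 4.04% for EpiRE against RERE and 13.9% for BRE against EpiRE. Without adjustment, p was below 0.05 for 1 gene in BRE against WT, 1 in EpiRE against WT and 0 in the other 4 comparisons. With time as a factor, 1 member was called in EpiRE against RERE (1.18%, against 2.27% of all tested genes).

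The nearest to a call by limma was Rps27l in BRE against WT, with a difference of 0.35 ± 0.12 log2 (adjusted p = 0.0740). Rps19bp1 in EpiRE against WT had 0.42 ± 0.16 (limma, adjusted p = 0.171). Next came Rpl36al in BRE against WT (0.19 ± 0.09, adjusted p = 0.216) and Rpl3 in EpiRE against WT (0.18 ± 0.08, adjusted p = 0.246). In RERE against WT, Rps19bp1 and Rpl3 had differences of 0.36 ± 0.15 and 0.20 ± 0.09 (adjusted p = 0.402 and 0.424). The smallest p-values of the other comparisons were those of Rps27a and Rps2 in BRE against RERE (adjusted p = 0.557 and 0.581), Rpl39 and Rpl7l1 in EpiRE against RERE (0.374 and 0.551) and Rplp0 and Rpl22l1 in BRE against EpiRE (0.214 and 0.222). In BRE against WT, 1 member was called when WT ZT20 replicate 4, BRE ZT4 replicate 4, BRE ZT12 replicate 4 or BRE ZT20 replicate 2 was left out. These comparisons share their libraries, and a missed threshold does not show that the rhythms are alike.

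Ratios of a paralog to its standard gene within a library take out what both share. Of 5 pairs in 4 genotypes, 6 of 20 log2 ratios varied with time of day (permutation test of the harmonic over time labels, 100000 resamples, adjusted over the 20). Of the 6, 3 belonged to Rps27l over Rps27, and the ratios are per length.

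Rps27l stood at 0.12 of the level of Rps27 on average in WT, RERE and EpiRE and at 0.11 in BRE. In BRE the ratio was 0.124, 0.122, 0.125 and 0.117 at ZT0 and 0.101, 0.0970, 0.0946 and 0.101 at ZT16. No ZT16 mouse reached the ZT0 range. The size was 0.34 ± 0.05 log2 with a peak at ZT4.37 (adjusted permutation p = 0.00060, n = 24). In RERE the ratio was 0.133, 0.125, 0.150 and 0.136 at ZT4 and 0.0963, 0.105, 0.103 and 0.111 at ZT16, again without overlap, with a size of 0.34 ± 0.06 and a peak at ZT4.61 (adjusted permutation p = 0.00060). In WT the size was 0.22 ± 0.07 with a peak at ZT0.58 (adjusted permutation p = 0.0452), and in EpiRE it was 0.17 ± 0.07 with a peak at ZT6.09 (adjusted permutation p = 0.183). The calls in BRE and RERE held in each of the 6 alternatives, and that in WT in 3 of 6. Differences of the ratio between genotypes were not tested.

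**Figure D4:**
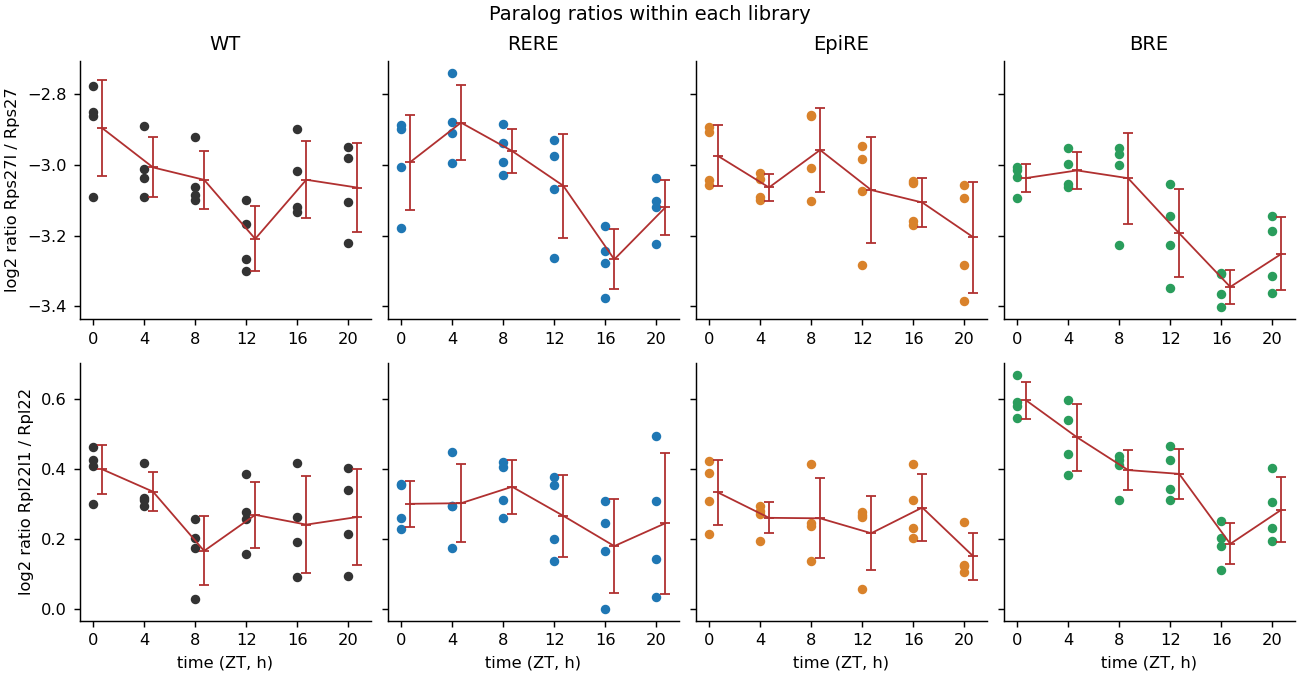
Log2 ratio of Rps27l to Rps27 (upper row) and of Rpl22l1 to Rpl22 (lower row) within each library against time of day, with the mean ± SD of 4 mice in red. Both ratios are lowest at ZT16 in BRE.

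Rpl22l1 exceeded Rpl22 in level, with a mean ratio of 1.21 for WT and RERE, 1.19 for EpiRE and 1.31 for BRE. In BRE it was 1.49, 1.46, 1.59 and 1.51 at ZT0 and 1.19, 1.13, 1.08 and 1.15 at ZT16. The size was 0.31 ± 0.06 log2 with a peak at ZT3.32 (adjusted permutation p = 0.0012), and the call held in each of the 6 alternatives. In WT the size was 0.15 ± 0.06 (adjusted permutation p = 0.183). The ratio of Rpl36al to Rpl36a varied in WT (0.19 ± 0.05, peak ZT18.6, adjusted permutation p = 0.0091), as did that of Rpl7l1 to Rpl7 (0.24 ± 0.07, peak ZT20.2, adjusted permutation p = 0.0452). The call held in 4 of 6 alternatives for Rpl36al and in 2 of 6 for Rpl7l1. For Rps4l to Rps4x no genotype passed the test, with the smallest adjusted permutation p at 0.183 in WT.

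Other genes of the ribosome pathway were taken from lists chosen with earlier results of these data known, and no test compared the lists with the members. Of the ribosome biogenesis genes, 30 of 35 were called in WT (85.7%, against 34.4% of all tested genes), with a median size of 0.40 log2. Of the 30, 28 peaked between ZT15 and ZT20, and the share of all tested genes that did so was not counted. Nolc1, a nucleolar chaperone, had a size of 0.60 ± 0.08 log2 with a peak at ZT16.5 (limma, adjusted p = 1.76e-05). Rrs1, needed for large-subunit assembly, had 0.65 ± 0.09 (ZT17.8), Rrp12, an export factor, 0.79 ± 0.12 (ZT17.6), and Rrp1b 0.65 ± 0.10 (ZT16.4). Nhp2, Pes1, Eif6, Npm1 and Sbds were not called. The count was 30 with median-of-ratios scaling too. Called members of the list numbered 3 of 35 in RERE, against 16.4% of all tested genes. In EpiRE 0 were called by limma, against 2.87% of all tested genes (11 of the list with unadjusted p below 0.05). In BRE 6 were called (17.1%, the same as all tested genes), led by Utp20 (0.46 ± 0.08, ZT23.5) and Mdn1 (0.50 ± 0.09, ZT21.4). Rhythms of 17 of the 35 differed in BRE against WT (48.6%, against 20.2% of all tested genes), with Nolc1 at 0.68 ± 0.14. In EpiRE against WT 5 differed (14.3% against 8.51%), in BRE against EpiRE 5 (14.3% against 13.9%, near the background) and in BRE against RERE 1 (2.86% against 4.79%). By limma 0 of the 35 differed in RERE against WT (against 0.453% of all tested genes) and 0 in EpiRE against RERE (against 4.04%). An unadjusted p below 0.05 was found for 22 and 5 of the list, and the matching share of all tested genes was not counted. With median-of-ratios scaling 12 differed in BRE against WT (34.3% against 18.7%), 1 in EpiRE against WT (2.86% against 5.39%) and 1 in BRE against EpiRE (2.86% against 11.4%). In BRE against RERE 0 differed by limma with that scaling, against 4.83% of all tested genes (3 of the list with unadjusted p below 0.05).

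**Figure D5:**
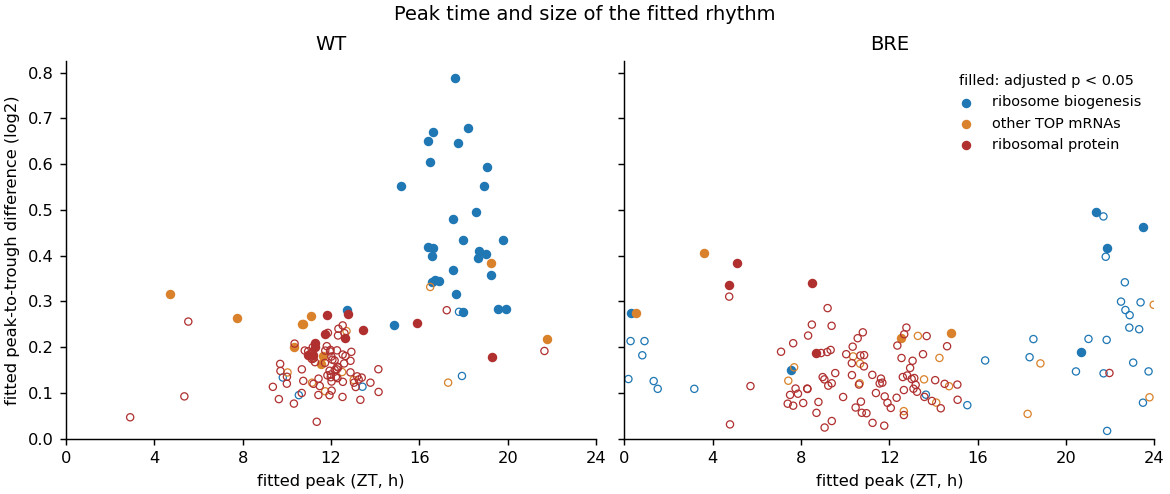
Fitted peak time (ZT, h) against fitted size (log2) in WT and BRE for the ribosomal protein genes, other TOP mRNAs and ribosome biogenesis genes, with called genes filled. In WT most ribosomal protein genes gather around ZT9 to ZT15 below 0.3 log2, and the biogenesis genes between ZT15 and ZT20 at larger sizes.

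Of 19 other TOP mRNAs, 10 were called in WT (52.6%, against 34.4%). In RERE 3 of 19 were called and in BRE 4 of 19, near the 16.4% and 17.1% of all tested genes. In EpiRE 0 were called by limma, against 2.87% of all tested genes (3 of the list with unadjusted p below 0.05). In WT, the initiation factor subunits Eif3f (0.25 ± 0.05 log2, ZT10.7) and Eif3e (0.25 ± 0.05, ZT10.7) and the elongation factor Eef2 (0.27 ± 0.06, ZT11.1) peaked near the ribosomal protein genes, while the histone chaperone Nap1l1 peaked at ZT19.3 (0.38 ± 0.06). Hnrnpa1, an RNA-binding protein, peaked at ZT4.70 in WT, ZT5.11 in RERE and ZT3.59 in BRE. For RNA polymerase I, which makes the large ribosomal RNAs, 5 of 14 were called in WT (35.7%, near the 34.4% of all tested genes), among them Polr1e (0.50 ± 0.08, ZT16.8) and Polr1a (0.48 ± 0.08, ZT17.9). For import and assembly of ribosomal proteins it was 9 of 14 (64.3%, and 7 of 14 with median-of-ratios scaling), of which 8 peaked between ZT15 and ZT20. For regulators it was 9 of 23 (39.1%), among them Mknk2, a kinase of the cap-binding protein (0.64 ± 0.08, ZT10.3), and Larp1 (0.20 ± 0.04, ZT17.1). Outside the cytosolic ribosome, 27 of 77 mitochondrial ribosomal protein genes (35.1%, near the 34.4% of all tested genes), 43 of 77 oxidative phosphorylation genes (55.8%) and 22 of 39 proteasome genes (56.4%) were called in WT. With median-of-ratios scaling these shares were 28.6%, 32.5% and 28.2%, against 31.8% of all tested genes.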

How the data were processed

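Messenger RNA was sequenced from 96 epidermis libraries, 24 per genotype, with a stranded poly(A) kit per the labels' protocols. Per the submitters' processing notes, the tools were Trimmomatic 0.36, HISAT2 2.2.1, SAMtools 1.3.1, featureCounts 1.6.0 and edgeR (version not given), with genome mm10. The deposited log2 values carry no named unit. They behave as log2 RPKM with a prior count of 2 reads, are called that here, and were tested as deposited, with no added pseudocount. Read depth was inferred from the lowest values, which the prior count sets. The authors also deposited q values (adjusted p-values) of JTK_CYCLE and BIOCYCLE.

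Genes averaging 1 RPKM or more (12144) were tested with limma 3.58.1 in R 4.3.3 (mean-variance trend): an F test of a 24 h harmonic (2 degrees of freedom) within a genotype, and of its interaction with genotype between 2 genotypes. The Benjamini-Hochberg adjustment ran over every tested gene, and a call is an adjusted p below 0.05. Counts at an unadjusted p below 0.05 are given without the matching share of all tested genes. That share cannot be below the adjusted one. Paralog ratios used a permutation test (100000 resamples). The tests were checked on simulated data. For limma each gene was given noise of its own there, so the check does not cover counts of members that move together. The labels give 4 biological replicates per time. The members, lists and rules were chosen with earlier results of these data known. Genes are named by rule: the 6 called members with the smallest adjusted p per genotype (otherwise 3 by p), 4 per comparison (otherwise 2), the 5 highest and 5 lowest levels, role groups, members that are no part of the ribosome, paralog pairs and any called member over 6 h from the median peak; for other lists, up to 4 by adjusted p. Rpl10a, Rpl36 and Rpl13 (which complete the WT count), Eef2, the keratinocyte markers beyond 4 and the 5 biogenesis genes not called were named after their values were seen. No rule set the times shown for single genes. Positions and start sequences are from RefSeq (GRCm38.p6, the same build as mm10). Alternatives covered scaling, filter, pseudocount, test shape, variance model, replicate block, transcript length and omitted libraries.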

Additional observations from a re-analysis of the deposited data

Results flagged for a closer look

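Among 4 mice at 1 time, a single value stood apart from the other 3 by Dixon's test in 5 of 120 groups examined, a rate near the 1 in 20 that chance gives. In WT these were replicate 2 at ZT0 for Rpl11 (1207 RPKM) and Rpl3 (579 RPKM), both the highest of their groups and from the same mouse, and replicate 3 at ZT16 for Rpl3 (638 RPKM). In RERE it was replicate 4 at ZT20 for Rpl39, the lowest at 7.08 RPKM. In BRE it was replicate 4 at ZT16 for Rps2, the highest at 977 RPKM.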

How the results depend on the processing

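The counts of rhythmic ribosomal protein genes moved with the processing, and the cause was not tested. In WT the count of 11 became 36 with median-of-ratios scaling, 44 with the length trend removed and 2 with no filter on low values. It became 1 with time as a factor and 7 when libraries were scaled to the members (chosen after seeing the data). Scaling to the members subtracts their mean deviation from each library, which removes their shared movement by construction. Its counts therefore cannot tell whether that movement is rhythmic. In BRE the count of 4 became 16, 34, 1, 16 and 13 in the same order. With no filter, 2.35% of the members were called in WT, against 17% of all genes, and 1.18% in BRE, against 6.03%. Scaled to the members, the shares were 8.24% against 38.4% in WT and 15.3% against 19.1% in BRE. The members' share called was below that of all tested genes in the deposited values (WT and BRE) and above it with median-of-ratios scaling and with the length trend removed, while in RERE and EpiRE it stayed below under both. In RERE the count of 1 became 0 with no filter, 0 with time as a factor, 0 with the replicate block and 2 when scaled to the members. Of all tested genes these settings called 7.32%, 10.8%, 16.7% and 7.14% in RERE. By the authors' deposited JTK_CYCLE and BIOCYCLE q values the counts were 0 in WT, 0 in RERE and 0 in BRE. Of all tested genes, JTK_CYCLE called 20.8%, 8.52% and 5.67% in these genotypes, and BIOCYCLE 10%, 1.56% and 0%. Leaving out 1 replicate number or 1 library gave 0 to 17 in WT, 0 to 1 in RERE and 0 to 18 in BRE, and 0 to 1 differences in BRE against WT and in EpiRE against WT. With time as a factor 1 difference was called in EpiRE against RERE (1.18%, against 2.27% of all tested genes). Paralog ratios called numbered 3 to 5 without a replicate number, against 6. A minimum of 5 RPKM, log2(value + 1), no trend and robust variances stayed within 1.5 times of each count, and in EpiRE the count was 0 in each alternative. Of 16 named rhythms called, 16 missed the threshold in at least 1 of 8 alternatives. The replicate numbers did not pair the samples (mean residual correlation of the same number -0.003 for WT, 0.028 for RERE, -0.021 for EpiRE, -0.007 for BRE, with 7, 10, 4 and 5 of 24 libraries closest to their own number). With the replicate block 11 were called in WT (10 shared, with Rpl7l1 lost), 0 in EpiRE, 4 in BRE (all 4 shared) and 6 ratios. Of all tested genes the block fit called 33.1% in WT, 1.7% in EpiRE and 15.1% in BRE. Rhythms much below 0.2 log2 are at the limit of 24 libraries.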
